A study of Mus musculus with 12 samples.

Results

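The genes described here are 34 genes of calcium handling and electrical activity in the mouse heart, chosen by name from a list that covers excitation-contraction coupling, ion channels, connexins and the beta-1 adrenergic receptor. All 34 were found among the 17536 genes of the deposited table, and all 34 were among the 13489 genes that passed a filter on low counts. The 12 RNA-seq libraries are of hearts from mice of the outbred ICR stock, all aged 10 weeks, and form 4 groups of 3. The AOS-FMT hearts came from mice given busulfan and an FMT whose label names AOS at 10 mg/kg. The control-FMT hearts came from mice given busulfan and a control FMT. The busulfan hearts came from mice given busulfan at 20 mg/kg, and the control hearts from mice labelled control. AOS and FMT are spelled as the labels give them, the labels state no busulfan dose for either FMT group, and they do not say whether busulfan and FMT were given in 1 or more doses. Busulfan is an alkylating drug used in chemotherapy. The stated aim was to explore how FMT acts on hearts damaged by busulfan.

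The libraries held 11333650 to 14335688 estimated counts, and no pair of replicates matched within sampling noise, their chi-square per degree of freedom lying between 8.88 and 71.5. The labels number the replicates without saying that they are separate animals, so a p-value here speaks of the spread between samples, which may in part be technical. Transcripts of atrial muscle varied widely within groups. The summed level of 8 atrial markers ran from 1948 to 26788 CPM, the count relative to the TMM-scaled library total, in AOS-FMT hearts, 497 to 4267 CPM in control-FMT hearts, 335 to 3292 CPM in busulfan hearts and 2075 to 19117 CPM in control hearts. The ventricular markers Myl2, Myl3, Irx4 and Hey2 summed to 7557 to 15221 CPM in AOS-FMT hearts, 14241 to 16552 CPM in control-FMT hearts, 17027 to 19906 CPM in busulfan hearts and 10019 to 21462 CPM in control hearts. Myh6, the adult myosin heavy chain of both atria and ventricles in the mouse, is given apart from them. An atrial score was formed for each library, which averages the log2 CPM of Bmp10, Myl4, Myl7 and Sln. The heart label held in every library, while the levels of chamber markers differed. In RNA from whole tissue, fewer cells of a type and less RNA per cell cannot be told apart.

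In a heart muscle cell, the action potential opens L-type calcium channels in the surface membrane, and the calcium that enters opens ryanodine receptors on the sarcoplasmic reticulum, which release the store that drives contraction. The SERCA pump returns calcium to the store under the brake of phospholamban, and the sodium-calcium exchanger removes the rest. Potassium channels end the action potential and hold the resting potential, HCN channels carry the pacemaker current, and connexins form the gap junctions that pass current from cell to cell. In the mouse, fast transient outward potassium currents dominate repolarisation, and many of these genes are expressed at different levels in atria, ventricles and conduction tissue.

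Promoter sequences were available for 25 of the 34 genes in a RefSeq table of GRCm38.p6, each covering 250 bases before to 50 bases after a gene's start. Shown here are those of Hcn2, the gene with the smallest p when the FMT groups were compared, of Gja5, whose level varied most between libraries, and of Pln, the gene with the highest level. The Hcn2 promoter is chr10:79716384-79716683, the Gja5 promoter chr3:97032152-97032451 and the Pln promoter chr10:53337436-53337735, all on the plus strand. Capitals mark the GC box GGGCGG and the TATA box TATAAA, each searched on both strands.
Hcn2: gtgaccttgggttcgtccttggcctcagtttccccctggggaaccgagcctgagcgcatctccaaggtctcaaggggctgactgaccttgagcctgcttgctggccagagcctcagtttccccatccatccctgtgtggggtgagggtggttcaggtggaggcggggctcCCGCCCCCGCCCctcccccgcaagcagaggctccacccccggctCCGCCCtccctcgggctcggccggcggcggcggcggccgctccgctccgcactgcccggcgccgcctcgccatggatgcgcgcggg
Gja5: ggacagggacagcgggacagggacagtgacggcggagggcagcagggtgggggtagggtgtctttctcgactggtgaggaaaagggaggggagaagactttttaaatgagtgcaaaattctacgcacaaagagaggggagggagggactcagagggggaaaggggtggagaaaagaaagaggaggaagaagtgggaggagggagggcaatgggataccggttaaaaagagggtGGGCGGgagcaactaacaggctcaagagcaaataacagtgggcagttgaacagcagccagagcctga
Pln: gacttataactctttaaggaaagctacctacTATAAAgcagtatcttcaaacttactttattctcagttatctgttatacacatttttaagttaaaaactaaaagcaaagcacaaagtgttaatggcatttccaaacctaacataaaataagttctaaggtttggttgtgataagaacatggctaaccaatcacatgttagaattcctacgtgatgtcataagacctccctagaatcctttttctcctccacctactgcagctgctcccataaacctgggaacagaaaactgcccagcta
The Hcn2 window was 72.3% G and C and held 3 GC boxes, the Gja5 window was 55.7% G and C and held 1, and the Pln window was 36.0% G and C and held the TATA letters at 219 to 214 bases before the start. The letters GGGCGG stood in 17 of the 29 promoters listed for the 25 genes, and in 35.7% of all 32851 promoters of the table. The letters TATAAA stood in 1 of the 29, that of Pln, and in 13.6% of all promoters. The median G and C content was 64.0% over the 29 promoters of these genes and 52.7% over all promoters. A match of letters is a description and no evidence of binding.

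Levels of different genes were compared on the deposited TPM scale, which divides by transcript length. The deposited TPM of a library stood in a different proportion to its CPM from library to library, on the log2 scale from 0.29 below the mean in control replicate 1 to 0.14 above it in control replicate 2, so group differences below are taken from the counts. Genes of calcium uptake had the highest levels. Pln, phospholamban, averaged 3525 TPM over the 12 libraries, Atp2a2, the SERCA pump, 3159 TPM, and S100a1, a calcium sensor that enhances SERCA and ryanodine receptor activity, 2716 TPM. Slc8a1, the sodium-calcium exchanger, averaged 23.9 TPM. The ranges of Pln, Atp2a2 and S100a1 over the 12 libraries overlapped. Within every library S100a1 was below Pln, while the ratio of Atp2a2 to Pln ran from 0.751 to 1.22.

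Within the calcium release unit, the store proteins exceeded the channel itself in transcripts. Hrc, the histidine-rich calcium-binding protein of the store, averaged 611 TPM, Casq2, cardiac calsequestrin, 488 TPM, and Trdn, triadin, which links calsequestrin to the channel, 413 TPM. Jph2, junctophilin, which ties the store to the surface membrane, averaged 243 TPM, and Asph, whose locus encodes junctin, 138 TPM. Ryr2, the ryanodine receptor, averaged 76.0 TPM, and Fkbp1b, which binds it, 2.57 TPM. The L-type channel had 26.0 TPM for its pore Cacna1c, 25.3 TPM for its beta subunit Cacnb2 and 36.2 TPM for Cacna2d1, the alpha2-delta subunit. The T-type pores were lower, with 7.69 TPM for Cacna1g and 0.362 TPM for Cacna1h. Camk2d, the main calmodulin-dependent kinase of the heart, averaged 40.7 TPM, and Adrb1, the beta-1 adrenergic receptor, 15.7 TPM.

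Among the potassium channels, Kcnip2, the accessory subunit of the fast transient outward channel, had 194 TPM, against 7.62 TPM for the pore Kcnd2, 2.93 TPM for the pore Kcnd3 and 8.14 TPM for Kcna5, the ultrarapid channel. Kcnk3, a background channel of the two-pore-domain class known as TASK-1, averaged 170 TPM, and Kcnj11, the pore of the ATP-sensitive channel, 56.4 TPM. Kcnj2 and Kcnj12, which carry the inward rectifier current, averaged 10.2 and 9.57 TPM. Of the delayed rectifiers, Kcnh2 averaged 50.7 TPM and Kcnq1 28.8 TPM. Scn4b, a beta subunit of the sodium channel, averaged 15.8 TPM. Hcn2 averaged 56.0 TPM and Hcn4, the main pacemaker isoform of the sinoatrial node, 3.19 TPM. The connexins ran from 200.4 TPM for Gja1, connexin 43 of the working muscle, to 14.6 TPM for Gjc1, connexin 45, and 12.3 TPM for Gja5, connexin 40 of atria and conduction fibres.

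**Figure D1:**
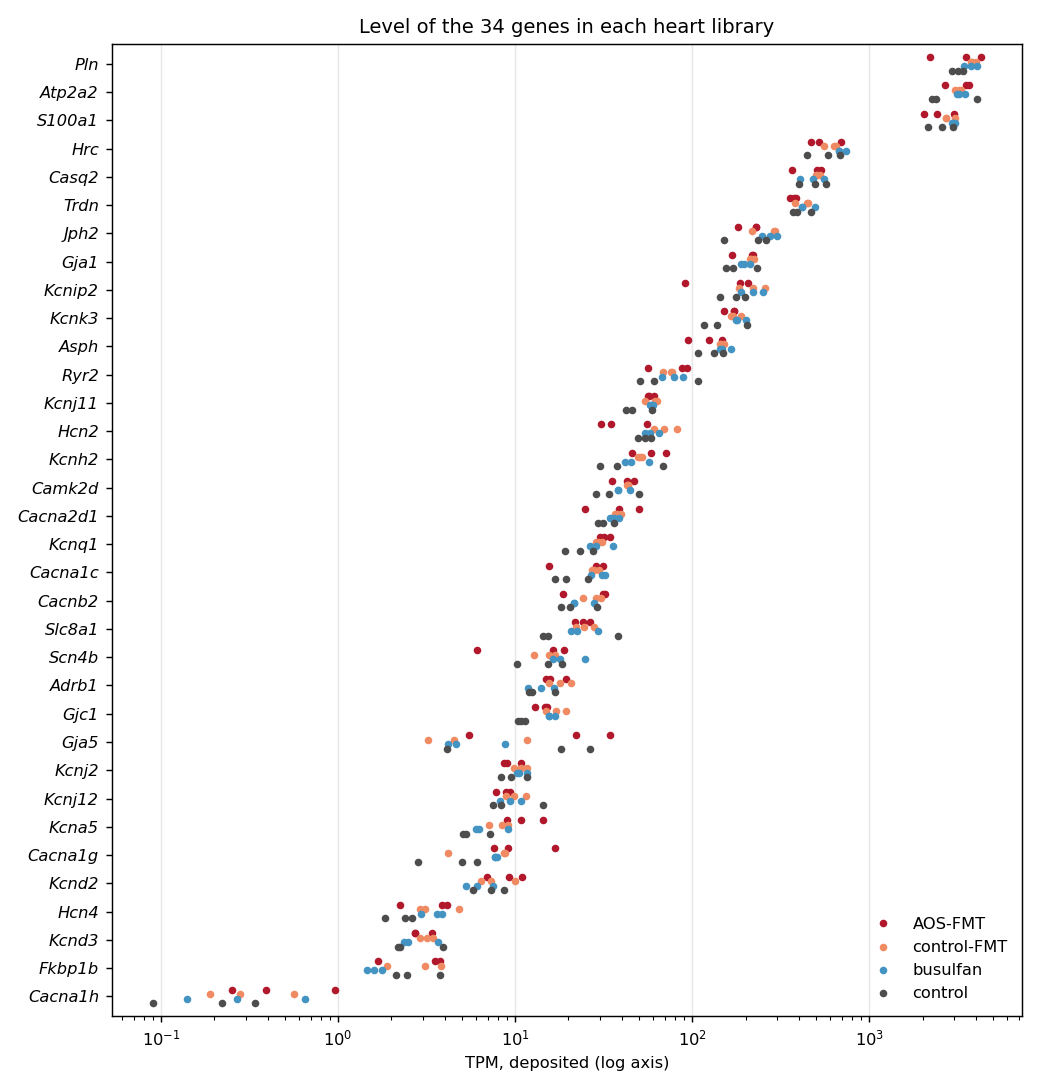
Deposited TPM on a log axis for each of the 34 genes, 1 point per library, coloured by group and ordered by the mean over the 12 libraries. Levels span from 0.362 TPM for Cacna1h to 3525 TPM for Pln, and for most genes the points of the 4 groups lie over each other, Gja5 being spread widest among the genes above 1 TPM.

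The genes differed in how steady they were. The coefficient of variation of CPM over the 12 libraries had a median of 16.1% over these genes and 14.8% over all genes tested. Gja5 varied most, with 82.1%, followed by Cacna1h and Cacna1g with 65.9% and 41.8%. Kcnj11 and Gja1 were the steadiest, with 7.24% and 7.38%. Kcnj11 lay between 117 and 140 CPM in every library, and Gja1 between 366 and 502 CPM. AOS-FMT replicate 2 stood apart. It had the lowest level of the 12 libraries for 17 of the 34 genes, while 18.3% of all genes tested were lowest there. The genes lowest there included Scn4b at 21.1 CPM, Kcnip2 at 147 CPM, Pln at 3523 CPM, Cacna1c at 147 CPM and Cacna2d1 at 117 CPM. In the other 11 libraries Scn4b lay between 42.9 and 88.2 CPM and Cacna2d1 between 165 and 240 CPM. The same library had the highest atrial marker sum of all 12, and its ventricular marker Myl2 was the lowest, at 3879 CPM. The part of these chamber markers in the low values was not tested.

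**Figure D2:**
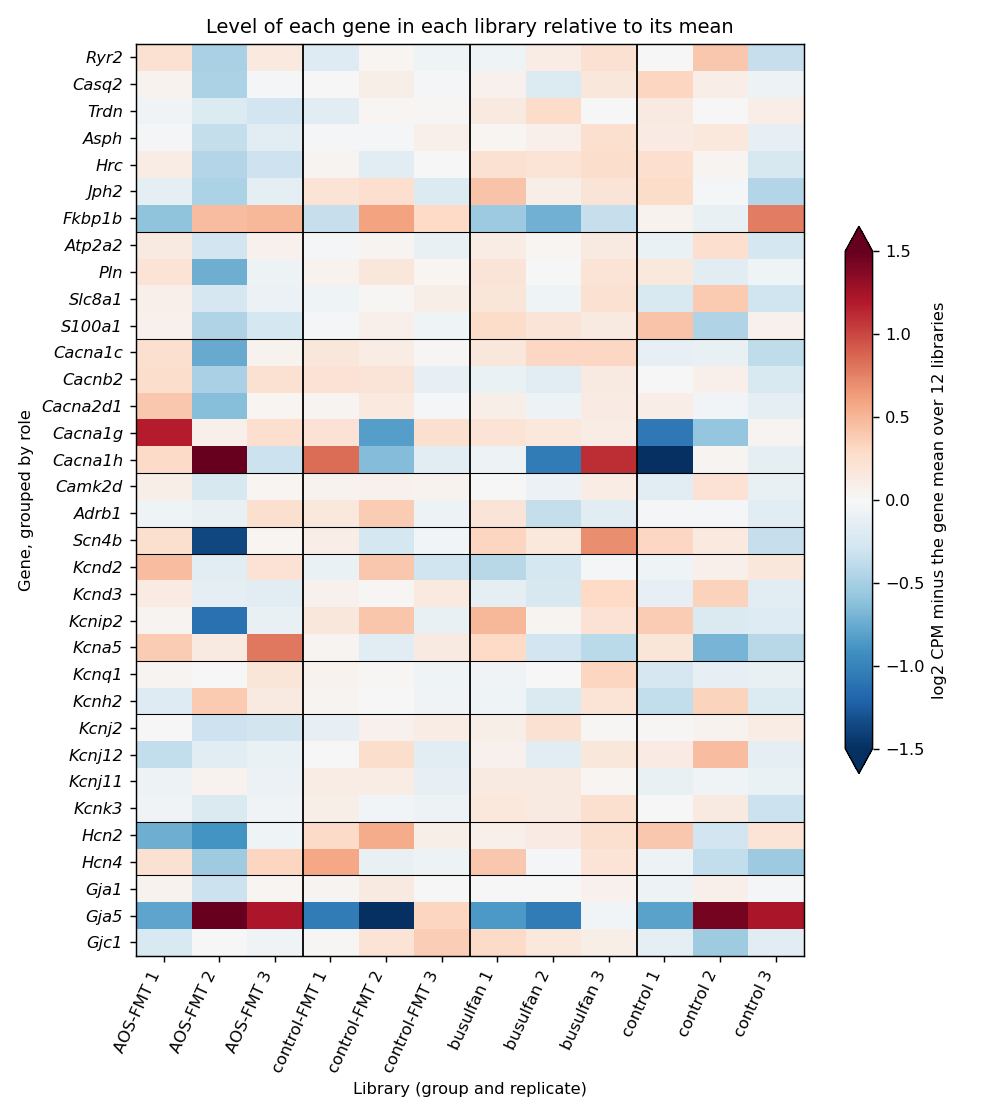
Each cell is the log2 CPM of a gene (down, grouped by role) in a library (across, by group and replicate) minus the gene's mean over the 12 libraries, and colours are capped at 1.5. In the column of AOS-FMT replicate 2, 17 of the 34 genes are at their lowest, and the row of Gja5 holds the widest range.

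Busulfan hearts were compared with control hearts to ask what the drug alone did to these genes. At an adjusted p under 0.05, edgeR called 0 of the 34 genes and 0.0593% of all genes tested. DESeq2 called 0 of the 34 and 0.912% of all genes, and limma-voom 0 of the 34 and 0.0371%. At an unadjusted p under 0.05 with edgeR, 3 of the 34 were higher in busulfan hearts and 0 lower, beside 5.54% and 5.78% of all genes. Leaving out 1 library gave between 1 gene, without busulfan replicate 3, and 5 genes, without control replicate 2. The fold changes leaned upward, with 27 of 34 above 0 beside 47.7% of all genes, and a median log2 fold change of 0.09 beside -0.01 for all genes. By library, the median log2 CPM of the 34 genes was 7.09, 7.08 and 7.24 in busulfan hearts. In control hearts it was 6.92, 7.14 and 6.95, so the groups overlapped. The 3 genes at an unadjusted p under 0.05 were Gjc1, Kcnq1 and Cacna1c, a connexin, a repolarising potassium channel and the L-type calcium channel. Marker sums of other cells differed without overlap as well. Fibroblast markers summed to 1303 to 1724 CPM in busulfan hearts and 1813 to 3095 CPM in control hearts, endothelial markers to 771 to 936 CPM in busulfan hearts and 704 to 736 CPM in control hearts, and liver markers to 21.1 to 24.2 CPM in busulfan hearts and 3.57 to 6.85 CPM in control hearts. Their part in the upward lean was not tested.

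Gjc1 had 24.5, 22.3 and 21.3 CPM in busulfan hearts, against 18.1, 13.9 and 17.8 CPM in control hearts. The lowest busulfan heart stood above the highest control heart. Its log2 fold change was 0.45 ± 0.13 (SE) with a 95% interval from 0.16 to 0.74, and its adjusted p with edgeR and Benjamini-Hochberg was 0.294. Cacna1c had 279, 308 and 308 CPM in busulfan hearts, against 228, 229 and 191 CPM in control hearts, again without overlap. The fitted log2 fold change was 0.47 ± 0.19, with an edgeR adjusted p of 0.402. Kcnq1, which also showed no overlap, had 58.2, 60.2 and 75.3 CPM in busulfan hearts, against 50.4, 55.2 and 55.8 CPM in control hearts. edgeR gave a log2 fold change of 0.26 ± 0.11 and an adjusted p of 0.398, and the fold change was 0.14 without busulfan replicate 3.

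The smallest p-values in the other direction belonged to Fkbp1b, Gja5 and Kcnd2. Fkbp1b had 0.957, 0.849 and 1.10 CPM in busulfan hearts, against 1.46, 1.29 and 2.38 CPM in control hearts. These levels do not overlap but come from few reads. The log2 fold change was -0.81, or -0.52 without control replicate 3, and the edgeR adjusted p was 0.483. Gja5 had 11.3, 9.93 and 20.0 CPM in busulfan hearts, against 11.8, 55.6 and 48.1 CPM in control hearts. Control replicate 1 lay inside the range of the busulfan hearts, so the groups overlapped. The log2 fold change of Gja5 was -1.49 ± 0.80, with an edgeR adjusted p of 0.537. With the atrial score as a covariate the sign of Gja5 turned, to 0.29. Kcnd2 had 22.8, 25.4 and 30.1 CPM in busulfan hearts, against 29.0, 32.0 and 34.3 CPM in control hearts, with an overlap of 1 value. Its edgeR adjusted p was 0.614. Other genes of the calcium cycle had log2 fold changes of 0.04 ± 0.21 for Ryr2, 0.11 ± 0.16 for Atp2a2, 0.16 ± 0.20 for Pln and 0.13 ± 0.17 for Slc8a1.

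Groups did not overlap for 7 of the 34 genes, 6 of them higher in busulfan hearts and 1 lower, where 7.74% and 6.38% of all genes tested did so in these directions. Besides Gjc1, Cacna1c and Kcnq1, the higher genes were Kcnj11, Cacna1g and Hcn4. Cacna1g had 47.6, 46.1 and 44.7 CPM in busulfan hearts, against 19.6, 27.5 and 42.3 CPM in control hearts. Its busulfan values lay close together while the control values spread, and the log2 fold change was 0.63 ± 0.37. Hcn4 had 20.9, 15.4 and 18.1 CPM in busulfan hearts, against 15.0, 12.2 and 10.8 CPM in control hearts. The log2 fold change came to 0.52 ± 0.24, with an edgeR adjusted p of 0.444. The summed markers of sinoatrial and nodal cells, where Hcn4 and Cacna1g are also known, were 26.0 to 28.6 CPM in busulfan hearts and 17.9 to 25.5 CPM in control hearts. The 5 genes of that list included Isl1, which was at 0 in all 6 of these libraries except control replicate 3. The part of such cells in these values was not tested.

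Control-FMT hearts were compared with busulfan hearts to ask what a control FMT added. Of the 34 genes 0 were called by edgeR, DESeq2 or limma-voom, which called 0%, 0.0148% and 0% of all genes tested. At an unadjusted p under 0.05 with edgeR there were 0 higher and 0 lower, beside 1.76% and 0.89% of all genes, and at most 1 gene when any 1 library was left out. The median log2 fold change was -0.06, beside -0.00 for all genes, with 15 of 34 above 0 beside 49.9% of all genes. Groups did not overlap for 4 genes, all lower in control-FMT hearts, namely Hrc, Kcnk3, S100a1 and Scn4b, and 0 were higher, beside 6.58% and 5.41% of all genes. The 4 ventricular markers were lower without overlap, at 14241 to 16552 CPM in control-FMT hearts and 17027 to 19906 CPM in busulfan hearts, and their part in these values was not tested.

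Hrc had 1086, 947 and 1045 CPM in control-FMT hearts, against 1237, 1211 and 1269 CPM in busulfan hearts. Its groups stood apart, and the log2 fold change was -0.27 ± 0.16. Kcnk3 had 513, 467 and 457 CPM in control-FMT hearts, against 536, 527 and 570 CPM in busulfan hearts, with a log2 fold change of -0.18 ± 0.13. Trdn had 355, 406 and 401 CPM in control-FMT hearts, against 436, 480 and 400 CPM in busulfan hearts. Its groups overlapped through busulfan replicate 3, and the log2 fold change was -0.18 ± 0.12, or -0.11 without busulfan replicate 2. The 3 smallest p-values for higher genes belonged to Fkbp1b, Adrb1 and Kcnd2, with log2 fold changes of 0.76 ± 0.41, 0.26 ± 0.15 and 0.25 ± 0.19. Without control-FMT replicate 2 those of Adrb1 and Kcnd2 were 0.14 and 0.028. Adrb1 was also 0.15 without busulfan replicate 2 and 0.42 without busulfan replicate 1, and Kcnd2 was 0.17 without busulfan replicate 1 and 0.39 without control-FMT replicate 3. Fkbp1b had 1.10, 2.13 and 1.73 CPM in control-FMT hearts, against the 0.957, 0.849 and 1.10 CPM of busulfan hearts. Adrb1 had 38.4, 45.0 and 32.7 CPM in control-FMT hearts, against 39.3, 27.0 and 30.7 CPM in busulfan hearts. Kcnd2 had 28.5, 40.1 and 24.8 CPM in control-FMT hearts, against the 22.8, 25.4 and 30.1 CPM of busulfan hearts. The values of Adrb1 and Kcnd2 overlapped between the groups, and those of Fkbp1b met at the edge. All 6 of these genes had an edgeR adjusted p of 0.999.

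AOS-FMT hearts were compared with busulfan hearts to ask what the AOS FMT added. Of the 34 genes 0 were called by edgeR, DESeq2 or limma-voom, which called 0.0445%, 0.971% and 0.0297% of all genes tested. At an unadjusted p under 0.05 there were 9 of the 34, with 2 higher in AOS-FMT hearts and 7 lower, where 7.80% and 5.85% of all genes reached that level in these directions. The median log2 fold change was -0.14, beside 0.00 for all genes, and 9 of 34 lay above 0 beside 50.7% of all genes. Without AOS-FMT replicate 2 that median was -0.03. The count of 9 fell to 4 without AOS-FMT replicate 2, 3 without AOS-FMT replicate 3, and 5 without busulfan replicate 2 or busulfan replicate 3, and it was 13 without AOS-FMT replicate 1. With the atrial score in the model it was 1, and of all genes edgeR called 0, in place of 6. The share of all genes at an unadjusted p under 0.05 was taken only in the fit of all 12 libraries without a covariate. The 7 lower genes were Hcn2, 4 partners of the calcium release unit and 2 potassium channels that hold the resting potential.

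Hcn2, the isoform of the pacemaker channel that is also found in working muscle, had 77.2, 68.9 and 123 CPM in AOS-FMT hearts, against 135, 140 and 152 CPM in busulfan hearts. The highest AOS-FMT heart lay below the lowest busulfan heart. The difference on the log2 scale was -0.67 ± 0.22 with a 95% interval from -1.14 to -0.19, and its edgeR adjusted p was 0.296. Kcnj2, the main inward rectifier, had 42.8, 34.4 and 35.2 CPM in AOS-FMT hearts, against 45.5, 50.1 and 43.3 CPM in busulfan hearts. These groups did not overlap by a narrow margin, the log2 fold change was -0.31 ± 0.11, and the edgeR adjusted p was 0.296. Kcnk3 had 464, 412 and 464 CPM in AOS-FMT hearts, all below the busulfan hearts, with a log2 fold change of -0.28 ± 0.13.

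In the calcium release unit, Trdn had 381, 345 and 326 CPM in AOS-FMT hearts, all below the 436, 480 and 400 CPM of busulfan hearts. Its log2 fold change was -0.32 ± 0.12, with an edgeR adjusted p of 0.297. Hrc had 1138, 778 and 852 CPM in AOS-FMT hearts, below the 1211 to 1269 CPM of busulfan hearts, with a log2 fold change of -0.43 ± 0.16. Jph2 had 684, 543 and 681 CPM in AOS-FMT hearts, against 1012, 802 and 862 CPM in busulfan hearts, with a log2 fold change of -0.49 ± 0.19. Asph had 231, 182 and 210 CPM in AOS-FMT hearts, against 238, 245 and 276 CPM in busulfan hearts, with a log2 fold change of -0.29 ± 0.12. None of these 4 genes overlapped between the groups, and their edgeR adjusted p lay between 0.297 and 0.329. Other genes of the same cycle did not reach an unadjusted p of 0.05, with log2 fold changes of -0.10 ± 0.21 for Ryr2, -0.11 ± 0.16 for Atp2a2, -0.15 ± 0.16 for Casq2, -0.20 ± 0.17 for Slc8a1, -0.29 ± 0.20 for Pln, -0.36 ± 0.19 for Cacna1c and -0.40 ± 0.19 for S100a1. In all, groups did not overlap for 10 of the 34 genes, 10 lower in AOS-FMT hearts and 0 higher, beside 10.9% and 10.3% of all genes.

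The 4 ventricular markers were also lower. Their sum lay between 7557 and 15221 CPM in AOS-FMT hearts and between 17027 and 19906 CPM in busulfan hearts, without overlap. Myh6 had an edgeR log2 fold change of -0.54 ± 0.18, and Myl2, the ventricular light chain, one of -0.72 ± 0.28. The 6 skeletal muscle markers summed to 2879 to 4274 CPM in AOS-FMT hearts and 5005 to 5990 CPM in busulfan hearts, nearly all of it Ckm and Acta1, which heart muscle also makes. Without that pair the sum was 0.755 to 5.92 CPM in AOS-FMT hearts and 0.849 to 1.10 CPM in busulfan hearts. Fibroblast markers lay higher, at 1891 to 3175 CPM in AOS-FMT hearts and 1303 to 1724 CPM in busulfan hearts. Macrophage markers were 219.1 to 314 CPM in AOS-FMT hearts and 164 to 219 CPM in busulfan hearts, which nearly met. The 6 liver markers summed to 53.1 to 522 CPM in AOS-FMT hearts and 21.1 to 24.2 CPM in busulfan hearts. The part of these tissues in the lower values of the 7 genes was not tested. The fit with the atrial score cannot give that part, because the score itself differed between the groups. It averaged 8.81 in AOS-FMT hearts and 3.80 in busulfan hearts.

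The higher genes were Kcna5 and Kcnd2, both channels of early repolarisation, and Gja5 had the next smallest p. Kcna5 had 22.5, 18.9 and 29.8 CPM in AOS-FMT hearts, against 21.2, 14.1 and 13.0 CPM in busulfan hearts, with overlap. The fitted log2 fold change was 0.56 ± 0.24, or 0.36 without AOS-FMT replicate 3, with an edgeR adjusted p of 0.343. Kcnd2 had 42.0, 27.0 and 35.2 CPM in AOS-FMT hearts, overlapping the 22.8 to 30.1 CPM of busulfan hearts, with a log2 fold change of 0.41 ± 0.19, or 0.25 without AOS-FMT replicate 1, and an edgeR adjusted p of 0.365. Gja5 had 11.9, 75.5 and 47.7 CPM in AOS-FMT hearts, against 11.3, 9.93 and 20.0 CPM in busulfan hearts. AOS-FMT replicate 1 lay within the busulfan range and the other two far above it. The log2 fold change was 1.72 ± 0.80, with an edgeR adjusted p of 0.384. It was 1.13 without AOS-FMT replicate 2 and turned to -0.10 with the atrial score in the model.

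**Figure D3:**
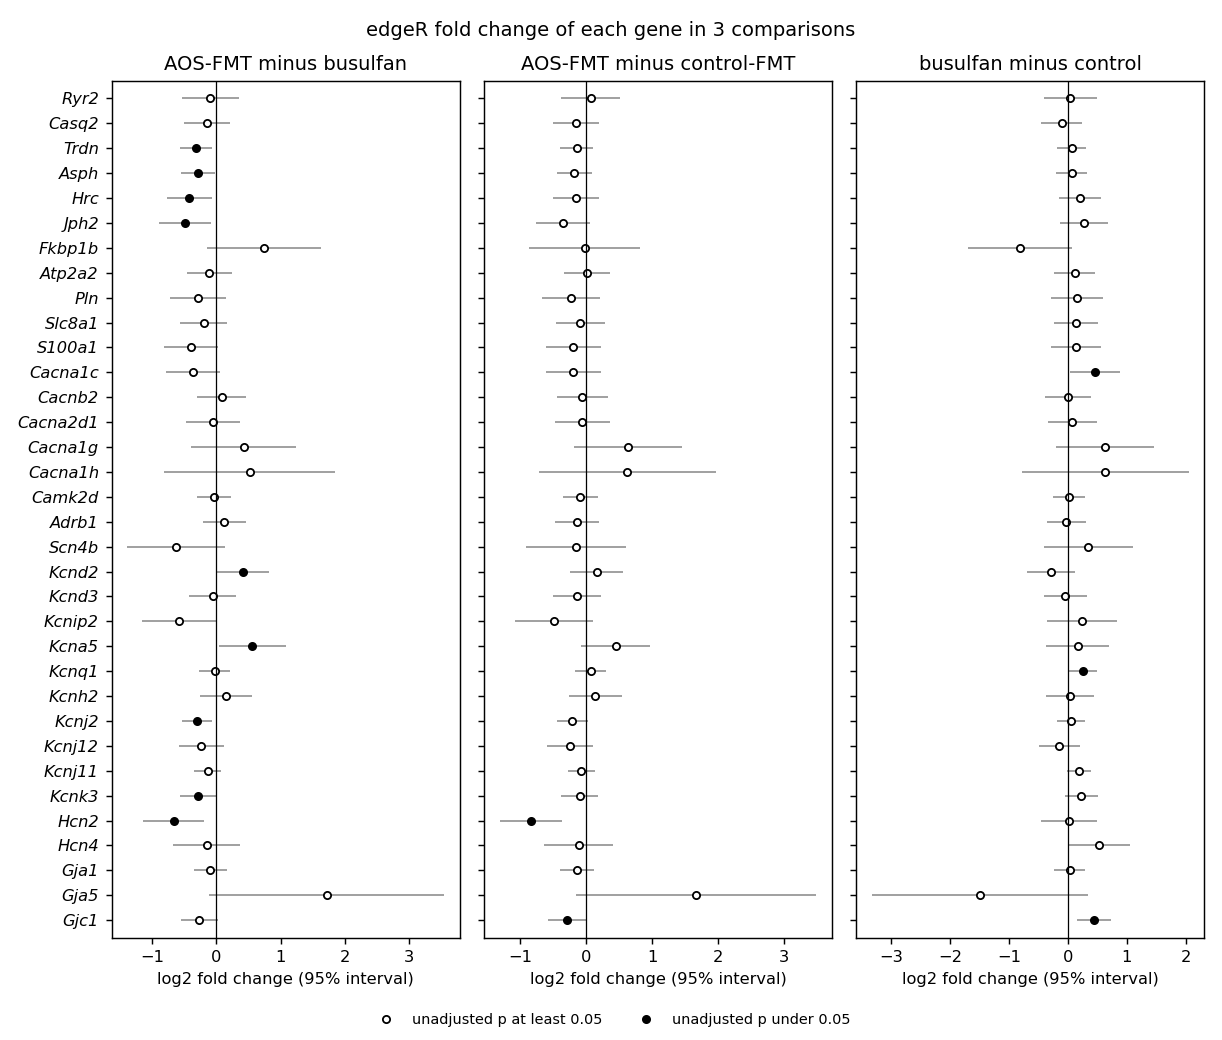
log2 fold changes from edgeR with 95% intervals for the 34 genes in AOS-FMT minus busulfan, AOS-FMT minus control-FMT and busulfan minus control, filled where the unadjusted p was under 0.05. The filled points number 9, 2 and 3, none of the 34 passed adjustment over all genes, and Gja5 has the widest interval in each panel.

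AOS-FMT hearts were compared with control-FMT hearts to ask what the AOS kind of FMT did beyond FMT itself. Of the 34 genes 0 were called by edgeR, DESeq2 or limma-voom, which called 0.0297%, 0.237% and 0.0297% of all genes tested. At an unadjusted p under 0.05 with edgeR there were 0 higher and 2 lower, Hcn2 and Gjc1, beside 3.88% and 2.35% of all genes. Leaving out 1 library gave 1 to 5 such genes, with 5 without AOS-FMT replicate 1, 4 without control replicate 1, and 1 without AOS-FMT replicate 3, control-FMT replicate 2, control replicate 3 or any 1 busulfan heart. The median log2 fold change was -0.13, beside 0.00 for all genes, and it was -0.02 without AOS-FMT replicate 2. Above 0 lay 9 of 34, beside 50.6% of all genes. Groups did not overlap for 1 gene higher and 2 lower, beside 6.52% and 7.29% of all genes.

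Hcn2 had 77.2, 68.9 and 123 CPM in AOS-FMT hearts, against 157, 189 and 136 CPM in control-FMT hearts. All 3 AOS-FMT hearts lay below all control-FMT hearts, and the fitted level was 0.559 times as high. The log2 fold change was -0.84 ± 0.22 with a 95% interval from -1.31 to -0.36. Its unadjusted p of 0.00221 with edgeR placed it at rank 41 of the 13489 genes, and its adjusted p was 0.706. Over the 21 alternatives of the analysis the log2 fold change lay between -1.14 and -0.68 and the adjusted p between 0.0624, with DESeq2, and 1.00. Hcn2 lies on chromosome 10 from 79716634 to 79736108 in GRCm38.p6, with the GC-rich promoter printed above. The summed nodal markers overlapped between these groups, at 27.1 to 33.0 CPM in AOS-FMT hearts and 25.8 to 33.9 CPM in control-FMT hearts. The 4 ventricular markers overlapped, at 7557 to 15221 CPM in AOS-FMT hearts and 14241 to 16552 CPM in control-FMT hearts. Myh6 was lower without overlap, at 40905 to 45126 CPM in AOS-FMT hearts and 46969 to 51292 CPM in control-FMT hearts. The 6 skeletal muscle markers, mostly Ckm and Acta1, were also lower, at 2879 to 4274 CPM in AOS-FMT hearts and 4846 to 4926 CPM in control-FMT hearts. Without Ckm and Acta1 their sum was 0.755 to 5.92 CPM in AOS-FMT hearts and 0.573 to 58.0 CPM in control-FMT hearts. Liver markers were higher, at 53.1 to 522 CPM in AOS-FMT hearts and 15.6 to 48.4 CPM in control-FMT hearts. The part of these markers in the Hcn2 difference was not tested.

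Gjc1 had 17.1, 20.1 and 19.3 CPM in AOS-FMT hearts, against 20.2, 23.2 and 25.9 CPM in control-FMT hearts. The groups were separated by a gap smaller than the spread within either. edgeR gave a log2 fold change of -0.29 ± 0.13 and an adjusted p of 0.792. Kcnj2 had 42.8, 34.4 and 35.2 CPM in AOS-FMT hearts, against 39.3, 44.7 and 46.2 CPM in control-FMT hearts, with overlap and an edgeR adjusted p of 0.797. Its log2 fold change was -0.21, or -0.32 without AOS-FMT replicate 1. The smallest p-values of higher genes were those of Gja5, Kcna5 and Cacna1g. Kcna5 had 22.5, 18.9 and 29.8 CPM in AOS-FMT hearts, against 17.8, 15.5 and 18.9 CPM in control-FMT hearts. AOS-FMT replicate 2 and control-FMT replicate 3 nearly met, and the log2 fold change was 0.45 ± 0.24, or 0.25 without AOS-FMT replicate 3. Cacna1g had 93.2, 43.6 and 49.2 CPM in AOS-FMT hearts, against 47.7, 23.2 and 48.7 CPM in control-FMT hearts. Its log2 fold change of 0.63 ± 0.37 was 0.22 without AOS-FMT replicate 1 and 0.36 without control-FMT replicate 2. Gja5 had 9.96, 7.28 and 25.6 CPM in control-FMT hearts, overlapping the AOS-FMT hearts, and its log2 fold change of 1.67 ± 0.80 was 1.08 without AOS-FMT replicate 2 and turned to -0.07 with the atrial score in the model. The edgeR adjusted p of Gja5, Kcna5 and Cacna1g was 0.797 each.

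**Figure D4:**
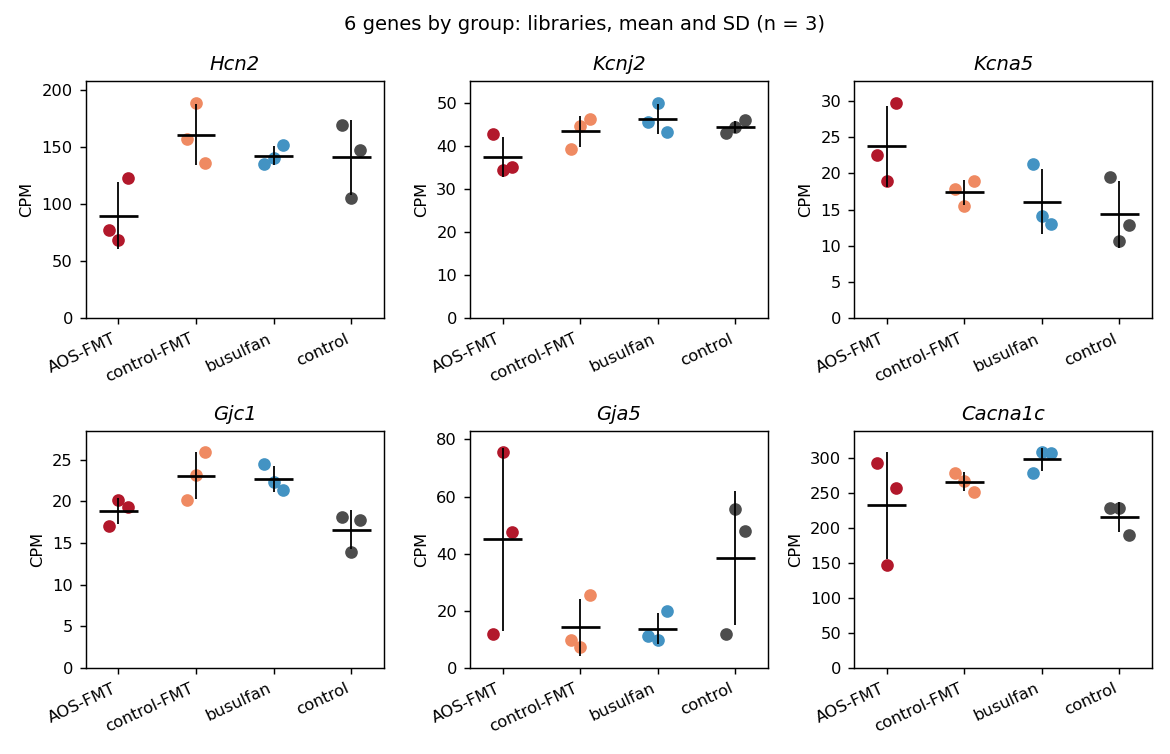
CPM of Hcn2, Kcnj2, Kcna5, Gjc1, Gja5 and Cacna1c by group, with 1 point per library, a bar at the mean and a line of 1 SD to each side (n = 3). Hcn2 is lower in AOS-FMT hearts, at 68.9 to 123 CPM, than in control-FMT or busulfan hearts, at 135 to 189 CPM, while control hearts reach down to 105 CPM.

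Both FMT groups were also set beside control hearts. These comparisons share the control libraries with busulfan against control, and the FMT libraries with the comparisons above, so the values are given side by side only. For control-FMT against control, 0 of the 34 were called by edgeR, DESeq2 or limma-voom, which called 0%, 0.682% and 0% of all genes. At an unadjusted p under 0.05 with edgeR there were 1 higher and 0 lower, beside 4.46% and 3.74% of all genes. The total of 1 was 4 without control replicate 1, 3 without AOS-FMT replicate 2 or control-FMT replicate 3, and 2 without control-FMT replicate 2 or control replicate 2. The median log2 fold change was 0.06, beside -0.01 for all genes, with 21 of 34 above 0 beside 47.4%. The 1 higher gene was Gjc1, with 20.2, 23.2 and 25.9 CPM in control-FMT hearts, against 18.1, 13.9 and 17.8 CPM in control hearts. Its groups did not overlap, and the log2 fold change was 0.48 ± 0.13, with an edgeR adjusted p of 0.379. Groups did not overlap for 2 more genes, Kcnq1 and Cacna1c, so 3 were higher and 0 lower, beside 7.16% and 4.71% of all genes. Cacna1c had 279, 267 and 252 CPM in control-FMT hearts, against 228, 229 and 191 CPM in control hearts, with a log2 fold change of 0.30 ± 0.19. Hcn4 had 23.6, 14.6 and 14.9 CPM in control-FMT hearts, against 15.0, 12.2 and 10.8 CPM in control hearts, with a log2 fold change of 0.49 ± 0.24. Hcn4 overlapped through control replicate 1, and its log2 fold change was 0.22 without control-FMT replicate 1. Gja5, Trdn and Kcnj12 had the smallest p-values of lower genes, with log2 fold changes of -1.44 ± 0.80, -0.12 ± 0.12 and -0.13 ± 0.16. Gja5 was -2.16 without control-FMT replicate 3 and turned to 0.27 with the atrial score in the model. Trdn was -0.057 without control-FMT replicate 1. Kcnj12 turned to 0.046 without control replicate 2, and was -0.25 without control-FMT replicate 2, -0.035 without control-FMT replicate 3 and -0.27 without control replicate 3. On log2 TPM Trdn and Kcnj12 were 0.050 and 0.060, below the median of all genes there, which was 0.17.

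For AOS-FMT against control, 0 of the 34 were called by edgeR, DESeq2 or limma-voom, which called 0.0815%, 0.904% and 0.111% of all genes. At an unadjusted p under 0.05 with edgeR there were 2 higher and 4 lower, beside 5.43% and 3.44% of all genes. The total of 6 was 3 without control replicate 1. Above 0 lay 15 of 34, beside 49.0% of all genes. The median log2 fold change was -0.06, beside -0.01 for all genes, and it was 0.04 without TMM scaling, where the median of all genes was 0.09. Kcna5 had 22.5, 18.9 and 29.8 CPM in AOS-FMT hearts, against 19.5, 10.6 and 12.9 CPM in control hearts. Control replicate 1 lay within the AOS-FMT range, and the log2 fold change was 0.73 ± 0.24 with an edgeR adjusted p of 0.389. Cacna1g, the T-type calcium channel, had 93.2, 43.6 and 49.2 CPM in AOS-FMT hearts, against 19.6, 27.5 and 42.3 CPM in control hearts. Its groups did not overlap, and its log2 fold change of 1.05 ± 0.37 was 0.64 without AOS-FMT replicate 1. Kcnq1, at 61.8, 60.0 and 68.1 CPM in AOS-FMT hearts, also lay above the 50.4 to 55.8 CPM of control hearts, with a log2 fold change of 0.23 ± 0.11.

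The lower genes of that comparison were Hcn2, Kcnj12, Kcnj2 and Trdn. Hcn2 had 77.2, 68.9 and 123 CPM in AOS-FMT hearts, against 169, 105 and 148 CPM in control hearts. Here the groups overlapped through AOS-FMT replicate 3 and control replicate 2, and the log2 fold change was -0.65 ± 0.22 with an edgeR adjusted p of 0.391. Kcnj12, the second inward rectifier gene, had 24.6, 28.4 and 29.6 CPM in AOS-FMT hearts, against 34.4, 43.8 and 29.0 CPM in control hearts. The log2 fold change came to -0.38 ± 0.16, or -0.20 without control replicate 2, with an edgeR adjusted p of 0.528. Kcnj2 had 42.8, 34.4 and 35.2 CPM in AOS-FMT hearts, against 43.1, 44.4 and 45.9 CPM in control hearts. The highest AOS-FMT heart lay just under the lowest control heart, and the log2 fold change was -0.25 ± 0.11 with an edgeR adjusted p of 0.539. Groups did not overlap for 2 genes higher and 2 lower, beside 6.63% and 3.80% of all genes. Endothelial markers summed to 869 to 976 CPM in AOS-FMT hearts and 797 to 908 CPM in control-FMT hearts, both above the 704 to 736 CPM of control hearts. Liver markers, at 53.1 to 522 CPM in AOS-FMT hearts and 15.6 to 48.4 CPM in control-FMT hearts, were above the 3.57 to 6.85 CPM of control hearts. Nodal markers, at 27.1 to 33.0 CPM in AOS-FMT hearts and 25.8 to 33.9 CPM in control-FMT hearts, were above the 17.9 to 25.5 CPM of control hearts. Their part in these differences was not tested.

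Because atrial transcripts varied within every group, each gene was also tested for a slope on the atrial score, with group in the model. The score was 6.57, 10.4 and 9.49 in AOS-FMT hearts, 3.48, 0.816 and 6.26 in control-FMT hearts, 0.174, 3.94 and 7.29 in busulfan hearts, and 6.04, 10.3 and 9.88 in control hearts. Of all genes tested, 0.363% had an edgeR adjusted p under 0.05, and 0 of the 34 did, with 2 slopes above 0 and 3 below 0 at an unadjusted p under 0.05, beside 8.83% and 5.32% of all genes. Gja5 had the smallest p of the 34, with a slope of 0.32 ± 0.08 log2 units per unit of score and an edgeR adjusted p of 0.175. The libraries with a score above 9 had 47.7 to 75.5 CPM of Gja5, and all other libraries at most 25.6 CPM. DESeq2, which called 1.82% of all genes, gave an adjusted p of 0.0217 for this slope, and edgeR without busulfan replicate 1 gave 0.00384. Over the 20 alternatives that p ran from 0.00384 to 0.800. Kcnip2, Jph2 and S100a1 came next, with edgeR slopes of -0.10 ± 0.03, -0.06 ± 0.02 and -0.06 ± 0.03 and adjusted p of 0.233, 0.276 and 0.313. Kcnip2 had 147 to 293 CPM in the 4 libraries with a score above 9, and 293 to 447 CPM in the others.

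On a linear form of the score, edgeR called 8.84% of all genes and 5 of the 34. Gja5 and Kcnh2 had slopes above 0, and Kcnip2, Pln and S100a1 slopes below 0. These calls depended on single libraries. Without control replicate 1 edgeR called 298 of all genes, in place of 1193, and of the 34 it called Cacna2d1 and Pln. Without AOS-FMT replicate 2 it called 646 of all genes and Gja5, Kcnh2 and S100a1 of the 34. Without AOS-FMT replicate 1 it called 1041 of all genes and Hcn2, Kcna5, Kcnh2, Kcnip2 and S100a1, and without control replicate 2 it called 1230 of all genes and 9 of the 34. Without any 1 of the other 8 libraries it called the same 5 genes.

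**Figure D5:**
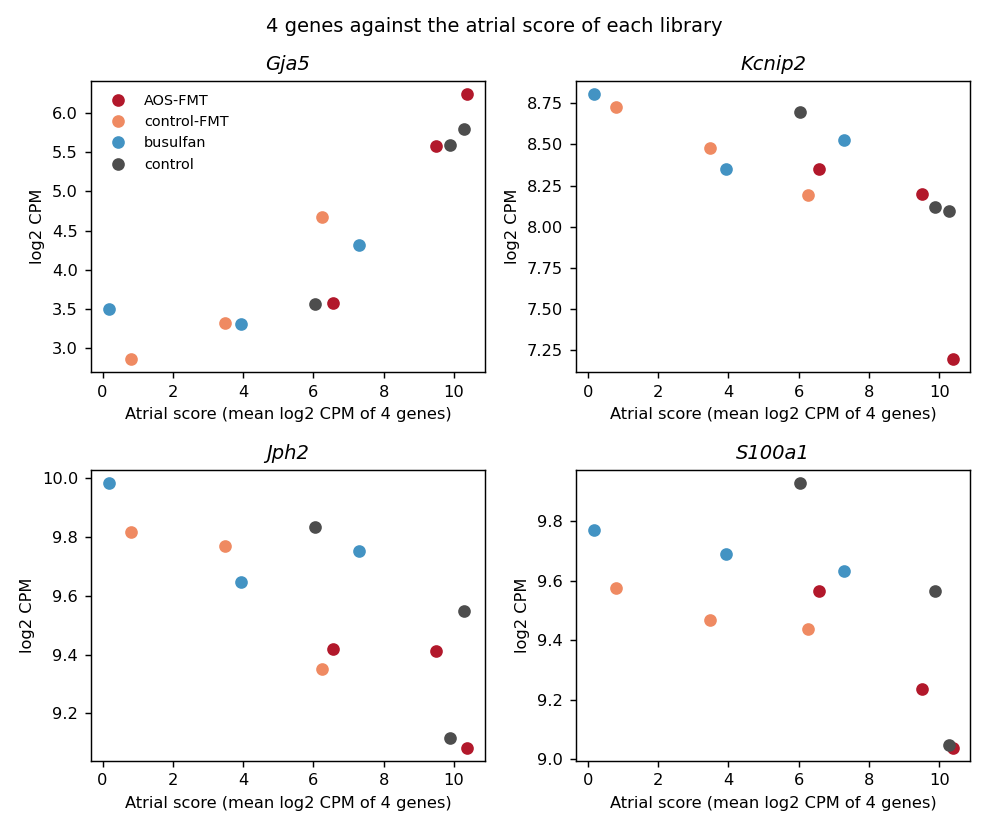
log2 CPM of Gja5, Kcnip2, Jph2 and S100a1 against the atrial score, 1 point per library, coloured by group. Gja5 is highest, at 47.7 to 75.5 CPM, in the 4 libraries with a score above 9, which are AOS-FMT and control hearts, and Kcnip2 is at 147 to 293 CPM there against 293 to 447 CPM in the other 8.

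Ratios within a library do not depend on its scaling, and 10 pairs of functional partners were formed from TPM, as descriptions with no test. The ratio of the pump to its inhibitor, Atp2a2 to Pln, was 0.852, 1.22 and 0.989 in AOS-FMT hearts, 0.851, 0.821 and 0.813 in control-FMT hearts, 0.851, 0.913 and 0.851 in busulfan hearts, and 0.751, 1.20 and 0.776 in control hearts. Its highest values were in AOS-FMT replicate 2 and control replicate 2, which also had the highest atrial scores. Control replicate 3, with the next highest score of 9.88, had a low ratio of 0.776. The ratio of Cacna1c to Cacnb2, pore to beta subunit, was 1.26, 1.45 and 1.16 in busulfan hearts, above the other 9 libraries, which lay between 0.825 and 1.12. The ratio of Kcnip2 to Kcnd2 was 18.8, 13.1 and 20.1 in AOS-FMT hearts, 30.3, 25.8 and 28.5 in control-FMT hearts, 47.3, 31.0 and 29.5 in busulfan hearts, and 34.5, 20.6 and 19.7 in control hearts. AOS-FMT hearts lay below the control-FMT and busulfan hearts but overlapped control hearts. The ratio of Gja1 to Gja5 ran from 4.89 to 69.3, and that of Hcn2 to Hcn4 from 9.02 to 29.7.

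A further 122 genes of the same systems, such as auxiliary subunits, phosphatases and intercalated disc proteins, were listed, and 112 of them were tested. None was called by edgeR in any of the 6 comparisons between groups. For AOS-FMT against busulfan, 11 were higher and 13 lower at an unadjusted p under 0.05 with edgeR, beside 7.8% and 5.85% of all genes. Control-FMT against control had 11 and 3, beside 4.46% and 3.74%, and AOS-FMT against control 9 and 1, beside 5.43% and 3.44%. Control-FMT against busulfan had 3 and 5, beside 1.76% and 0.89%. AOS-FMT against control-FMT also had 3 and 5, beside 3.88% and 2.35%. For busulfan against control, 13 of the 112 were higher and 6 lower at an unadjusted p under 0.05, beside 5.54% and 5.78% of all genes. The smallest p belonged to Kcne1, the subunit that slows Kcnq1, with 8.44, 14.3 and 7.19 CPM in busulfan hearts, against 4.88, 3.11 and 1.82 CPM in control hearts. These groups did not overlap, and the log2 fold change was 1.61 ± 0.35, with an edgeR adjusted p of 0.203. In control-FMT hearts Kcne1 had 5.96, 8.18 and 11.2 CPM, with a log2 fold change against control of 1.37 ± 0.35. Scn3b, a sodium channel beta subunit, had 4.96, 4.41 and 3.47 CPM in busulfan hearts, against 1.11, 2.13 and 1.98 CPM in control hearts, with a log2 fold change of 1.29 ± 0.32. Jup, plakoglobin of the intercalated disc, had 459, 427 and 486 CPM in busulfan hearts, against 339, 351 and 350 CPM in control hearts. The difference on the log2 scale was 0.40 ± 0.11. DESeq2 called these 3 for busulfan against control, with adjusted p of 0.00790 for Kcne1, 0.0485 for Scn3b and 0.0216 for Jup, where the alternatives reached up to 0.687, 0.687 and 0.781. For control-FMT against control DESeq2 called Kcne1 and Jup, with adjusted p of 0.0432 and 0.0352.

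Pde4b, a phosphodiesterase that degrades cyclic AMP near L-type channels, came closest to the threshold. It had 51.2, 63.6 and 57.5 CPM in AOS-FMT hearts, 43.1, 39.2 and 41.7 CPM in control-FMT hearts, 36.3, 35.7 and 34.4 CPM in busulfan hearts, and 36.7, 46.8 and 44.2 CPM in control hearts. All 3 AOS-FMT hearts lay above the other 9. Its log2 fold change was 0.70 ± 0.11 against busulfan, with an edgeR adjusted p of 0.0534, and 0.48 ± 0.11 against control-FMT, with an edgeR adjusted p of 0.508 and a DESeq2 adjusted p of 0.0482. For AOS-FMT against busulfan the adjusted p was 3.96e-05 with DESeq2 and 0.0417 in edgeR without the filter on low counts, and over the 21 alternatives it ran up to 0.946. Leaving out AOS-FMT replicate 1 or control replicate 1 brought it under the threshold with edgeR, at 0.0264 and 0.0194. Ano1, a calcium-activated chloride channel, had 11.8, 12.8 and 14.6 CPM in AOS-FMT hearts and 12.5, 13.3 and 13.5 CPM in control-FMT hearts, against 10.4, 9.67 and 9.13 CPM in busulfan hearts. The fitted log2 fold change was 0.43 ± 0.13 for each FMT group against busulfan. Strit1, a micropeptide known to displace phospholamban from SERCA, had 8.05, 2.52 and 4.83 CPM in AOS-FMT hearts, against 11.6, 15.9 and 8.29 CPM in busulfan hearts. Its groups stood close at their edges, and the log2 fold change was -1.23 ± 0.36, with an edgeR adjusted p of 0.279.

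The remaining companions named by the same rule stood as follows. Itpr2, an inositol trisphosphate receptor, had 23.8, 26.4 and 24.3 CPM in control-FMT hearts, against 39.6, 45.0 and 31.8 CPM in busulfan hearts. Those groups were separate, with a log2 fold change of -0.64 ± 0.20, and an edgeR adjusted p of 0.999. Kcna7, a potassium channel, had a log2 fold change of -0.39 ± 0.14 in the same comparison. For AOS-FMT against control-FMT, Kcnj5, the partner of Kcnj3 in the atrial acetylcholine-gated channel, had a log2 fold change of 0.87 ± 0.30. It was 0.55 without AOS-FMT replicate 2, and over the 21 alternatives it ran from 0.32 to 1.04. The slope of Kcnj5 on the atrial score was 0.10 ± 0.04, with an edgeR adjusted p of 0.312. Akap7, a kinase anchor, had a log2 fold change of -0.28 ± 0.10 in the same comparison of FMT groups. For AOS-FMT against control, Kcnn2, a small-conductance calcium-activated channel, had a log2 fold change of 0.52 ± 0.14, with an edgeR adjusted p of 0.233. On the atrial score edgeR called 1 of the 112, Ppp1r1b, a phosphatase inhibitor, with a slope of 0.67 ± 0.07 and an adjusted p of 0.000329. At an unadjusted p under 0.05 with edgeR, 16 slopes of the 112 lay above 0 and 10 below, beside 8.83% and 5.32% of all genes. The Ppp1r1b call was lost on the linear score, at an adjusted p of 0.153. There edgeR called 16 others of the 112, beside 8.84% of all genes.

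Some counts could hold reads of another gene. Of Pln, 56.2% of its 50-base stretches are shared with annotated transcripts of other genes on either strand, and the share was 15.3% for Gja5, 14.0% for Asph and 5.90% for Cacnb2. For 23 of the 34 genes it was under 1%. The strand of counting is not given in the sources used here, so reads in the 1.94% of Kcnq1 stretches that its antisense transcript Kcnq1ot1 shares cannot be assigned to either.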

How the data were processed

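RNA-seq of 12 mouse hearts, 3 in each of 4 groups, was analysed from 1 deposited table. Per the file headers it holds estimated counts, which the authors made per gene and which were rounded here to whole numbers for the tests. The authors also deposited TPM values, per the file headers, used here for levels and ratios between genes, and FPKM values, per the file headers, not used here. Columns of the authors' group means were not used. The submitters' processing notes name Bowtie 0.12.2 and the mm10 build. No source used here gives the counting tool or its annotation. Library totals were 11333650 to 14335688 estimated counts, and between 94.7% and 95.3% of the values in a library were whole numbers.

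The 34 genes, the companion and marker lists and the tests were chosen with earlier results of these data known. Genes were filtered with filterByExpr at a minimum count of 10, leaving 13489 genes, scaled by TMM (factors 0.908 to 1.08) and fitted in 1 robust quasi-likelihood model over all 12 libraries with group as the only term (edgeR 4.0.16, R 4.3.3). The common biological coefficient of variation was 18.6%. Calls needed an adjusted p under 0.05, by the method of Benjamini and Hochberg across the 13489 genes. The procedure was also run on simulated counts with known changes. Apart from those changes the simulated counts varied independently between genes, so that run does not cover variation that genes share between libraries. Every adjusted p is two-sided and from edgeR unless DESeq2 is named. Errors of fold changes are standard errors derived from the fold change and its quasi-likelihood F statistic. The 95% intervals use the moderated degrees of freedom. The atrial score adds a prior count of 0.5 before the log2. Its linear form averages the CPM of the 4 genes, each divided by its mean.

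By library were given, for each comparison, the 3 lowest p-values among higher and among lower genes, and for the atrial score the 4 lowest. Of the companions, those called or else the 3 with the smallest p were named. Any other gene given by value was chosen after its values were seen. Alternatives were RLE size factors, no scaling, no filter, DESeq2 1.42.0, limma-voom (limma 3.58.1), the 6 libraries compared alone, the atrial score as a covariate, a replicate block, and leaving out each library in turn. Ventricular marker sums without Myh6 and skeletal muscle sums without Ckm and Acta1 were added after the data were seen. Added after seeing the data were also limma on log2(TPM + 0.1) and leaving out each library for the linear score. Gene positions and promoters are from RefSeq tables of GRCm38.p6, and shared stretches of 50 bases from the reference transcripts.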

Additional observations from a re-analysis of the deposited data

How the results depend on the processing

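In each of the 6 comparisons edgeR called 0 of the 34 genes, and so did each of the 21 alternatives per comparison, leaving out any 1 library included (range 0 to 0). Counts of all genes called depended on the tool. DESeq2 called 123 and edgeR 8 genes in busulfan over control, and in the same order 131 and 6 in AOS-FMT over busulfan, 32 and 4 in AOS-FMT over control-FMT, 92 and 0 in control-FMT over control, 122 and 11 in AOS-FMT over control, and 2 and 0 in control-FMT over busulfan. The number of these genes following the atrial score was 0 with edgeR, 1 with DESeq2, 0 to 1 when any 1 library was left out (1 without busulfan replicate 1), and 5 on the linear score. The median log2 fold change of the 34 genes moved with scaling. On log2 TPM it was 0.22 in busulfan over control, 0.24 in control-FMT over control, 0.17 in AOS-FMT over control and -0.021 in AOS-FMT over busulfan, where the medians of all genes were 0.08, 0.17, 0.19 and 0.12. Without scaling it was -0.012 in AOS-FMT over busulfan and 0.037 in AOS-FMT over control, where the medians of all genes were 0.14 and 0.09. Leaving out 1 library gave medians of -0.22 to -0.031 in AOS-FMT over busulfan, -0.20 to -0.021 in AOS-FMT over control-FMT and -0.11 to 0.069 in AOS-FMT over control. The upper end was reached without AOS-FMT replicate 2 in the first pair of these and without control replicate 2 in the last, where it was 0.027 without AOS-FMT replicate 2. With the atrial score as a covariate the log2 fold change of Gja5 changed sign in 4 comparisons, to 0.29 in busulfan over control, 0.27 in control-FMT over control, -0.10 in AOS-FMT over busulfan and -0.074 in AOS-FMT over control-FMT. For control-FMT against control, Trdn and Kcnj12 were 0.050 and 0.060 on log2 TPM, both below the all-gene median there, and Kcnj12 ran from -0.27 to 0.046 when 1 library was left out. The cause of these shifts was not tested. The labels state no pairing by replicate number. Of 18 same-numbered pairs across groups, 10 had a correlation of their deviations over 0.1 (mean 0.11), against 8 of 36 pairs of other numbers (mean -0.06). A library correlated best with its own number in 19 of 36 cases. Same-numbered libraries thus deviated together more often than others, and the cause was not tested. The main fit held no pairing because the labels state none, and the replicate block was an alternative. With a replicate block 0 of the 34 genes were called in any comparison, while all-gene counts were 10 in busulfan over control, 14 in AOS-FMT over busulfan, 6 in AOS-FMT over control-FMT, 7 in control-FMT over control, 25 in AOS-FMT over control and 0 in control-FMT over busulfan. With the block Pde4b had an adjusted p of 0.0488 in AOS-FMT over busulfan and Ppp1r1b 0.0701 for the atrial slope. Depth limits Fkbp1b and Cacna1h, which reached at most 2.38 and 5.94 CPM in any library.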
